A study of Mus musculus with 8 samples.

Results

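Serum exosomes of mice that carried no tumour held RNA reads assigned to a set of 356 protein-coding mouse genes at unusually high levels, and these genes are the subject here. They were chosen from 21474 protein-coding mouse genes by the deposited values themselves: a mean of 100 or more over the 4 libraries made without tumour, while the protein-coding median in those libraries was 5. Symbols made of Gm and digits, ending in Rik or starting with mt-, and a short list of haemoglobin and other named genes, were left out. In all, 413 protein-coding genes reached the threshold under any name, and 37, 9, 0 and 11 of them were removed for these reasons. The level without tumour is therefore how the genes were selected and is given only as a description.

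The samples were exosomes, small membrane-bound particles released by cells, taken from the serum of immunodeficient NCr nu/nu mice, which lack a thymus and so have few T cells. There were 4 groups of 2 libraries. The first group was OSCA-40, serum at necropsy (week 8) of mice given 100000 cells of the canine osteosarcoma line OSCA-40 into the tibia in 10 µl. OSCA-32 was the same with the canine osteosarcoma line OSCA-32, and PBS was serum at week 8 of mice given 10 µl of phosphate-buffered saline into the tibia. Week 0 was serum of all mice before injection. Serum was pooled within a group. Neither the number nor the age of the mice is stated in the labels. No label says that the libraries of a group came from separate animals, so the p-values below reflect library-to-library spread alone, possibly a technical one. Each value is the gene's share of its library on a scale close to TPM (a level per transcript length), written as a whole number. Library totals were 977106 to 989183, the read depth is unknown, and no counting interval is given.

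Exosome RNA from serum is scarce and mostly fragmented, and small libraries of total RNA take in pieces of introns and of interspersed repeats as well as messenger RNA. Mouse genes carry many copies of short interspersed elements, above all B1 and B2, and runs of 2-base units such as GT, mostly in introns, untranslated regions and isoforms that make no protein. A pseudoaligner such as kallisto shares a read among every listed transcript that contains its short words, so a transcript that is short and holds a repeat can receive reads that fit many genes. These are properties of the method in general, and their part in the levels given here was not tested.

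The sequences that the genes shared were examined first, because the rule did not use them. All listed mouse transcripts (GENCODE release 21, build GRCm38, which is not shown to be the annotation of the deposited table) were cut into words of 30 bases, and a word was called widely shared where it occurred in transcripts of at least 20 genes. A widely shared word stood in 302 of the 356 genes (84.8%), against 7031 of the 21118 other protein-coding genes (33.3%). The 8 words examined were chosen as those found in the most members, so their shares among members are raised by the choice itself. Of these words, 5 are shown as examples of 2-base runs and of B1 and B2 letters. They run 5′ to 3′ on the transcript strand, with the whole word in capitals.
Word 1, a GT run: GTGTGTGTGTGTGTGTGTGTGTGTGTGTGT
Word 2, a CT run: CTCTCTCTCTCTCTCTCTCTCTCTCTCTCT
Word 3, letters of the B1 element: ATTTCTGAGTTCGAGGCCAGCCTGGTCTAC
Word 4, letters of the B2 element: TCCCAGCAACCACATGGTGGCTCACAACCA
Word 8, letters of the B2 tail: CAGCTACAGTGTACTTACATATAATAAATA
Counted on either strand, word 1 was found in 80 members (22.5%, against 8.35% of the other protein-coding genes), word 2 in 47 (13.2%, against 3.01%), word 3 in 43 (12.1%, against 2.66%), word 4 in 45 (12.6%, against 2.57%) and word 8 in 25 (7.02%, against 0.739%). Words 5, 6 and 7, not shown, were found in 30 (8.43%, against 2.33%), 34 (9.55%, against 2.44%) and 32 members (8.99%, against 2.13%). The words overlap in their genes, so these counts do not add up. Genes are not independent replicates, and the shares are given as descriptions of the sets.

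The same words were then located in single genes. In each example below, the capitals mark the most widely shared 30-base word of that gene and the lower case gives its neighbouring bases, all read from the gene's listed transcript. In 9 of 16 genes examined, the 15 highest and Foxp2, this word lay in an isoform that makes no protein. It lay in an untranslated region in 6 and in coding sequence in 1, Reg2. Where the word stood at several places, a place outside annotated untranslated regions was taken first, so these counts lean away from such regions. The words of Ccdc34 and Caps2 occurred in 19 genes each and that of Reg2 in 1, so they were not widely shared.
Tlr1, chr5:64933229-64933288, minus strand: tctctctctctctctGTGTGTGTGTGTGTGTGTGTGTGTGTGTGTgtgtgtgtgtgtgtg
Myo7a, chr7:98103297-98103356, minus strand: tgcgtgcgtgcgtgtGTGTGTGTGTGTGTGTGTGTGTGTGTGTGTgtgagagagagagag
Chek2, chr5:110866618-110866677, plus strand: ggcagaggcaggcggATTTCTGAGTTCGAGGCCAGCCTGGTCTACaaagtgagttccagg
Brca2, chr5:150526601-150526660, plus strand: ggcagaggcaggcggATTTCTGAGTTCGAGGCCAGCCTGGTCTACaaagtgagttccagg
Map4, chr9:110027977-110028036, plus strand: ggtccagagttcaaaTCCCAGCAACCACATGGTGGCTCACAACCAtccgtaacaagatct
Foxp2, chr6:15185262-15185291, plus strand: CTCTCTCTCTCTCTCTCTCTCTCTCTCTCT
Reg2, chr6:78405513-78405572, plus strand: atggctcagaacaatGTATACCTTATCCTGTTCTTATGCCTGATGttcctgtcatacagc
Stretches were compared only between genes with the same word, so the 30 bases of the word match by construction. Those of Chek2 and Brca2, which lie far apart on the chromosome, differed at 0 of 60 bases. Tlr1 and Myo7a differed at 16. Of pairs with a stretch not shown, Tlr1 and Fgd4 differed at 9, Myo7a and Fgd4 at 19, and Ccdc34 and Caps2 at 4. The GT run of Tlr1 stood in an isoform of 419 bases and that of Myo7a in one of 467 bases, whereas the longest transcripts of these genes have 3025 and 7506 bases. The CT run of Foxp2 lay in the untranslated region of an isoform of 352 bases, in a gene whose longest transcript has 6760 bases. Reg2 is shown as the exception: its word, from the start of its coding sequence, occurred in no other gene. Only Reg2 and Ankef1, 2 of 356 members (0.562%), had no word that any other listed gene shared, against 36.0% of the other protein-coding genes.

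The members also differed from other protein-coding genes in how they are annotated. Their median was 8 transcripts per gene, against 4 for the other protein-coding genes, and 330 members (92.7%) had at least 1 isoform listed as not protein-coding, against 60.7%. The median longest transcript had 3831.5 bases, against 2894.5, the median shortest 438.5 bases, against 630, and the median gene span was 44358.5 bases, against 17462. The excess of widely shared words was found outside coding sequence. They stood in an isoform that is not protein-coding in 68.5% of members, against 15.5% of the other genes, in an untranslated region in 36.2%, against 20.8%, and in coding sequence in 4.21%, against 4.61%. In 169 members (47.5%) they stood in isoforms that are not protein-coding and nowhere else, against 10.4%. The difference was also present within broad bands of transcript number. Among genes with 9 or more, 91.4% of members and 49.3% of other genes had such a word, and among genes with 2 to 4 it was 78.6%, against 31.2%. Transcript number within a band, transcript length and the presence of isoforms that are not protein-coding were not matched.

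**Figure D1:**
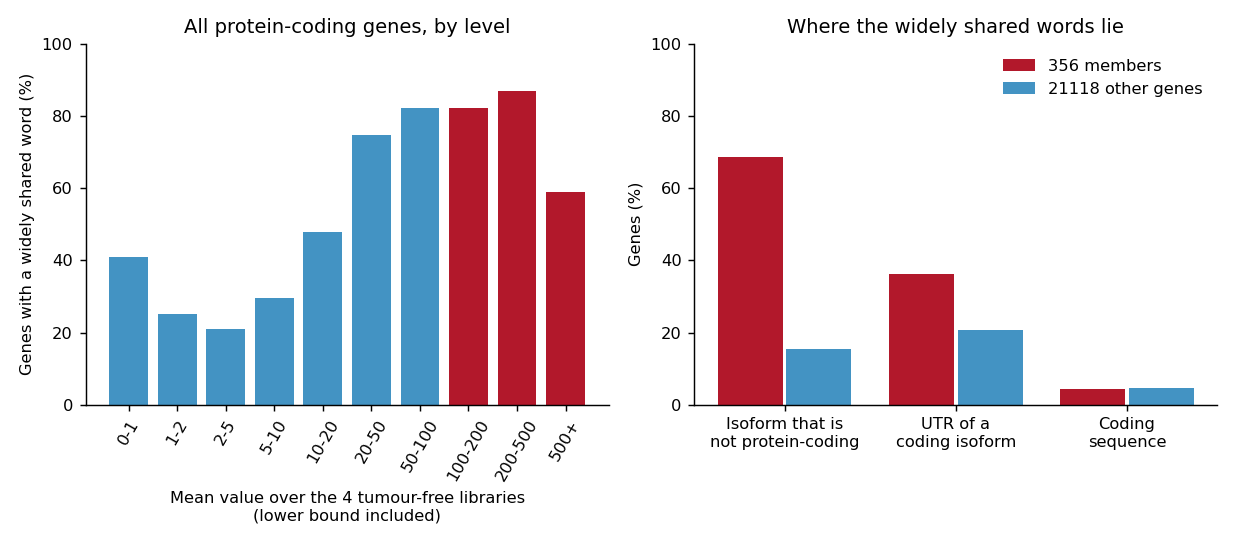
Left, the percentage of all protein-coding genes with a widely shared 30-base word (vertical axis) by mean deposited value without tumour (horizontal axis), with bands of 100 or more in red whatever the gene's name; right, the percentage of the 356 members (red) and of 21118 other protein-coding genes (blue) with such a word in each kind of sequence. The share was 21% in genes at 2 to 5, 82.1% at 50 to 100 and 87.0% at 200 to 500, and the members stood apart in isoforms that are not protein-coding (68.5% against 15.5%) and not in coding sequence (4.21% against 4.61%).

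These features were not particular to genes past the threshold. Protein-coding genes with a mean of 50 to under 100 that are no members had a widely shared word in 328 of 387 cases (84.8%), the same share as the members to the digit printed. Over all protein-coding genes the share was lowest at a mean of 2 to 5 (21%) and reached 47.9% at 10 to 20 and 74.8% at 20 to 50. It was 59.0% at 500 or more (49 of 83 genes), where 53 genes were members and the rest had names that the rule leaves out. Genes without such a word in this band were not left-out names alone, and included the members Reg2, Ccdc34 and Caps2. The threshold itself cut through a continuum: just inside it lay Nomo1 and Ufsp2 at 100.25 and Ankhd1 at 100, and just outside it Lhfpl4 at 99.5, Cfap61 at 98.25 and Cyp4x1 at 97.25.

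The levels without tumour were concentrated in few genes. The median member stood at 183, and 192 members lay between 100 and 200, 111 between 200 and 500, 30 between 500 and 1000, and 23 at 1000 or more. The 5 highest members held 20.3% of the members' summed mean and the 50 highest 55.7%. The members came from all chromosomes of the table other than Y and the mitochondrial one, with 37 on chromosome 1 and 34 on chromosome 7. The textbook roles of the highest genes lie in different tissues and pathways.

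Tlr1 (ENSMUSG00000044827), a Toll-like receptor that recognises bacterial lipopeptides together with Tlr2, was the highest member. It stood at 5545 and 5200 in the OSCA-40 libraries, 8921 and 8225 in the OSCA-32 libraries, 9130 and 10005 in the PBS libraries and 9695 and 10034 in the week 0 libraries. Atp2b4, a calcium pump of the plasma membrane, stood at 3535 and 4698 in OSCA-40, 4797 and 4375 in OSCA-32, 6528 and 6480 in PBS and 8283 and 8443 at week 0. Its OSCA-40 and OSCA-32 libraries overlapped as deposited, and its OSCA-40 libraries were farther apart than those of any other group. Myo7a, an unconventional myosin of inner ear hair cells, stood at 586 and 665 in OSCA-40, 2552 and 2449 in OSCA-32, 4533 and 4669 in PBS and 4434 and 4517 at week 0. Myo7a was low in both OSCA-40 libraries relative to all other libraries.

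The other members of the 15 highest had means without tumour of 1517 to 3400.25. Chek2, a kinase of the DNA damage checkpoint, stood at 1040 and 1175 in OSCA-40, 2435 and 2686 in OSCA-32, 3462 and 3783 in PBS and 3196 and 3160 at week 0. Brca2, a gene of recombination repair, stood at 1103 and 1038 in OSCA-40, 1791 and 2051 in OSCA-32, 2391 and 2526 in PBS and 1828 and 1953 at week 0. For both genes the OSCA-40 libraries lay below every other library as deposited. Mrpl48, a protein of the large mitochondrial ribosomal subunit, averaged 1101.5 ± 30.4 in OSCA-40, 2551.5 ± 62.9 in OSCA-32, 3193.5 ± 12 in PBS and 3277 ± 65.1 at week 0 (SD, n = 2 each). Map4, a microtubule-associated protein, averaged 1185.5 ± 40.3 in OSCA-40, 2073.5 ± 82.7 in OSCA-32, 2551 ± 26.9 in PBS and 2562 ± 59.4 at week 0 (SD, n = 2 each). As deposited, the spread of Mrpl48 and Map4 between libraries of a group was small beside the gap between the groups with and without tumour. The deposited OSCA-32 values of Brca2 overlapped those of week 0. Divided by the scaling factors given below, Map4 averaged 3557 in OSCA-40 and 2965 in OSCA-32, against 2437 in PBS and 2541 at week 0. In the same order the scaled means of Mrpl48 were 3302, 3648, 3051 and 3249, and those of Brca2 3208, 2744, 2348 and 1874. Map4 and Brca2 then stood higher with tumour. Their log2 fold changes against PBS were 0.54 and 0.45 in OSCA-40 and 0.28 and 0.22 in OSCA-32. Mrpl48 was only slightly higher, at 0.11 in OSCA-40 and 0.26 in OSCA-32, and its OSCA-40 mean was near that of week 0. At the threshold used below, only the OSCA-40 differences of Map4 and Brca2 passed. The scaled groups of Chek2, at means of 3326, 3658, 3460 and 3151, overlapped. Reg2, a secreted lectin-like protein of the pancreas, stood at 524 and 545 in OSCA-40, 1339 and 1308 in OSCA-32, 2542 and 2588 in PBS and 2001 and 1908 at week 0. The rest of the 15 highest were Syt17 of the synaptotagmin family, Pam, which amidates peptide hormones, Ccdc34, Caps2, Bud23, which methylates ribosomal RNA, Pign, of the synthesis of glycosylphosphatidylinositol anchors, and Fgd4, an exchange factor for Cdc42.

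**Figure D2:**
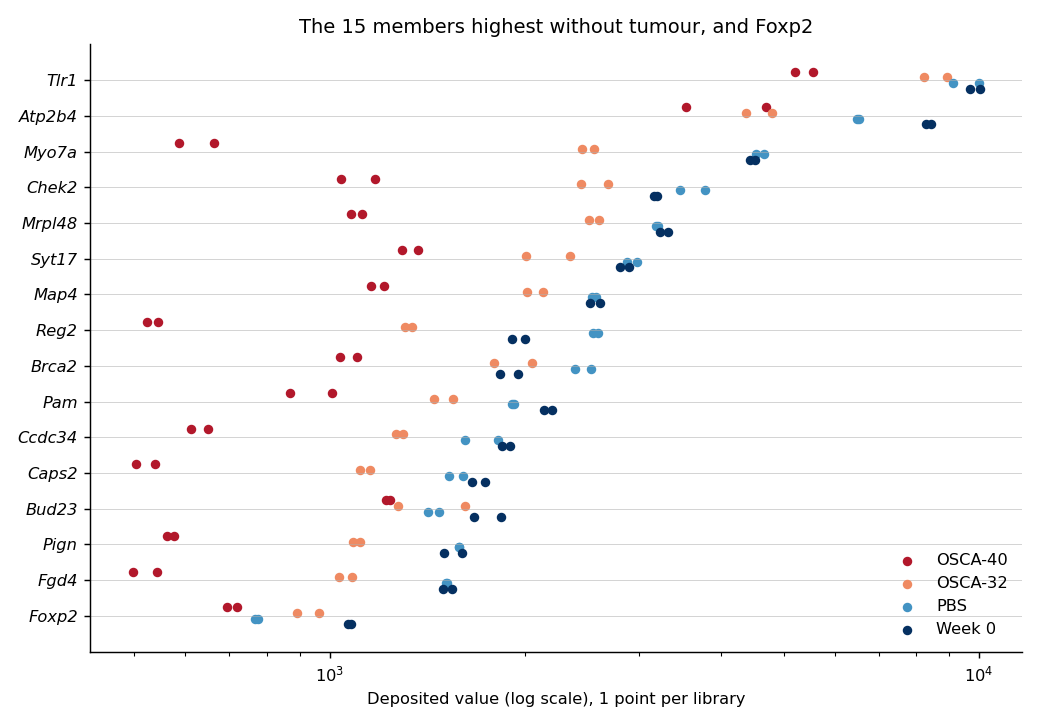
Deposited values (horizontal, log scale) of the 15 members highest without tumour and of Foxp2 (rows), with 1 point per library and a colour per group. In most rows the OSCA-40 points are lowest and the OSCA-32 points lie between them and the PBS and week 0 points, while Foxp2 spans 695 to 1081 over all 8 libraries.

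Foxp2 (ENSMUSG00000029563, chr6:14901349-15441977, plus strand), a forkhead transcription factor known for its role in vocalisation and speech circuits, had a mean of 923 without tumour. It stood at 721 and 695 in OSCA-40, 891 and 964 in OSCA-32, 775 and 767 in PBS and 1069 and 1081 at week 0. The 4 groups did not overlap, and the order as deposited was week 0, OSCA-32, PBS and OSCA-40 from high to low. Among the members, Foxp2 was the 10th highest in both OSCA-40 libraries, the 20th and 19th in OSCA-32, the 35th and 34th in PBS and the 21st in both week 0 libraries. The rest of its family was far lower: Foxp1 had a mean without tumour of 23.25, Foxp4 of 9 and Foxp3, the factor of regulatory T cells, of 3.

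The genes that usually mark blood cells and vesicles were looked for among the members, with the limit that the rule takes some out by name. Of the 15 genes named in the rule, 11 reached the threshold, among them the haemoglobin gene Hba-a2 at a mean of 246.25 without tumour and Cd9, a membrane protein common on exosomes, at 208. The haemoglobin genes Hba-a1, Hbb-bs and Hbb-bt stood at 25.25, 59.25 and 24. Of the marker lists used (platelets, erythroid cells, hepatocytes, neutrophils, monocytes and macrophages, B cells, T cells, brain and skeletal muscle), 0 genes were members under any list, and the highest marker was Cd3d of T cells at a mean of 90 without tumour. The 7 vesicle components (Cd63, Cd81, Cd82, Tsg101, Pdcd6ip, Flot1 and Sdcbp) had a median of 10.75 and a maximum of 16.5 for Cd82. The 29 cytosolic ribosomal protein genes in the table had a median of 9, with Rps18 highest at 37.75, and of 16 commonly abundant messenger RNAs the highest was Gapdh at 77.5. The marker that defines platelets, Pf4, stood at 85 and 69 in OSCA-40, 46 and 46 in OSCA-32, 39 and 30 in PBS and 29 and 17 at week 0, while Itga2b of the same list stood at 11 and 8 in OSCA-40, 17 and 11 in OSCA-32, 29 and 18 in PBS and 20 and 23 at week 0. The summed platelet list, most of it Pf4 in OSCA-40, was 88 to 108 in OSCA-40, 73 to 83 in OSCA-32, 66 to 88 in PBS and 54 to 62 at week 0. As deposited, all other marker lists except hepatocytes had lower sums in both OSCA-40 libraries than in either PBS library, in libraries where canine genes held a larger share. Divided by the scaling factors given below, the sums of the platelet, erythroid, hepatocyte, T cell and brain lists were higher in both OSCA-40 libraries than in either PBS library (erythroid cells at 135 and 178 in OSCA-40, against 99.0 and 115 in PBS). That of monocytes and macrophages was lower, and those of B cells, neutrophils and skeletal muscle overlapped. A higher sum was not a rise of each gene in its list. As deposited in OSCA-40, Cd3d stood at 41 and 32 of T cell sums of 46 and 33, and Snap25 at 12 and 14 of brain sums of 24 and 21. Cd3e of the T cell list stood at 1 and 0 in OSCA-40, against 3 and 3 in PBS. Syt1 of the brain list stood at 1 and 0, against 10 and 6. The part of these cells in the members' values was not tested. In such pooled serum, fewer vesicles of one origin and less RNA per vesicle cannot be told apart.

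As deposited, the members' summed share was lower with tumour. They made up 5.46% ± 0.0194 of the library in OSCA-40, 10.3% ± 0.116 in OSCA-32, 14.3% ± 0.195 in PBS and 14.1% ± 0.175 at week 0 (SD, n = 2 each). As a share of the mouse values alone, the members made up 17.97% ± 0.895 in OSCA-40, 18.4% ± 0.131 in OSCA-32, 16.9% ± 0.302 in PBS and 17.0% ± 0.396 at week 0 (SD, n = 2 each). Canine genes, listed in the same table, held 68.4% and 70.7% of the OSCA-40 libraries, 44.7% and 43.3% of the OSCA-32 libraries, 14.7% and 15.2% of the PBS libraries and 16.1% and 17.4% of the week 0 libraries, so a mouse gene's share moves with the canine share. The median member stood at 67 and 64 in OSCA-40, 131.5 and 135 in OSCA-32, 187 and 191 in PBS and 179.5 and 184 at week 0. Of the 356 members, 114 and 107 were at 100 or more in the OSCA-40 libraries, 240 and 246 in OSCA-32, 344 and 348 in PBS and 338 and 341 at week 0, and none was listed at 0 in any of the 8 libraries.

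**Figure D3:**
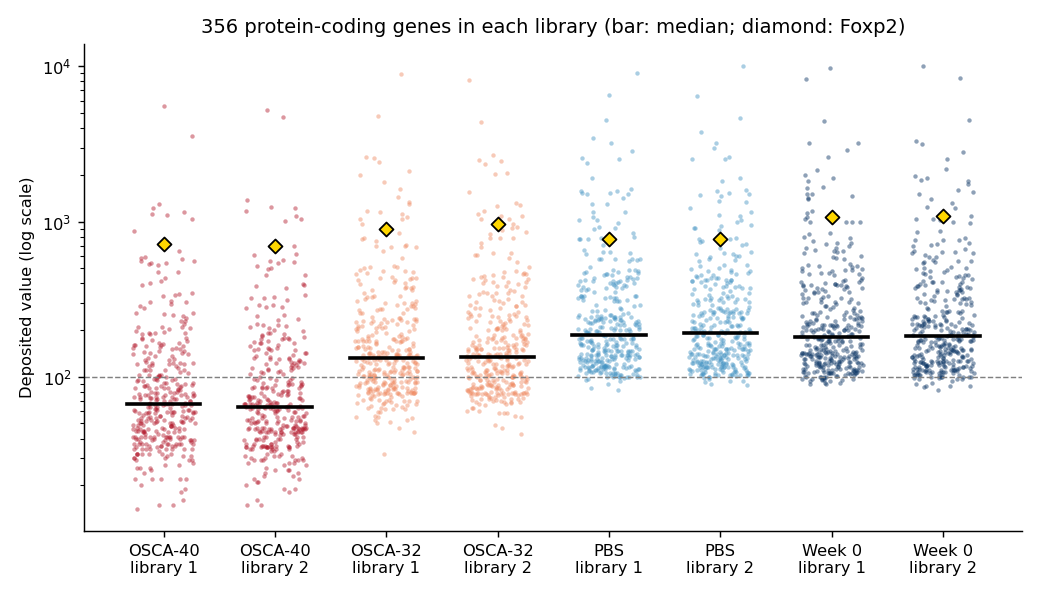
Deposited value (vertical, log scale) of the 356 members in each of the 8 libraries, with 1 point per gene, a bar at the median, a diamond for Foxp2 and a dashed line at the threshold of 100. The median bars stand at 67 and 64 in OSCA-40, 131.5 and 135 in OSCA-32, 187 and 191 in PBS and 179.5 and 184 at week 0, while Foxp2 stays between 695 and 1081.

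To compare genes relative to one another, each library was divided by a scaling factor, a trimmed mean of its log ratios to the first week 0 library over all genes. The factors were 0.341 and 0.327 for OSCA-40, 0.690 and 0.709 for OSCA-32, 1.04 and 1.05 for PBS and 1 and 1.02 for week 0. All fold changes below are on the scale log2(scaled value + 1) and are relative to this typical gene. Scaled in this way, libraries of a group agreed more closely for the members than for mouse genes at large: the median absolute log2 difference between the libraries was 0.13 for members in OSCA-40, against 0.38 for all tested mouse genes. It was 0.13, against 0.32, in OSCA-32, 0.08, against 0.25, in PBS and 0.07, against 0.25, at week 0. The members were chosen for a high level and the tested mouse genes at large were not. No set of genes at the members' level was compared, so the part of level in this closer agreement was not tested. The PBS and week 0 libraries also chose the members. The member whose libraries of a group lay farthest apart was Sfta2, a surfactant-associated gene. It stood at 172 and 31 in the OSCA-40 libraries, 78 and 74 in OSCA-32, 236 and 305 in PBS and 216 and 189 at week 0.

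In OSCA-40 against OSCA-32 the fold changes come from libraries the rule did not use, while the scaling and the estimate of spread drew on all 8 libraries. Between the lines, 22 members were higher and 19 lower in OSCA-40 at an adjusted p of 0.05 (limma, Benjamini-Hochberg over 7872 genes), 41 of 356 or 11.5%. Of all genes tested, 2.54% passed, 1.58% higher and 0.965% lower. Mouse genes at 100 or more without tumour that are no members passed in 21 of 151 cases, or 13.9%, so the members' share was no higher than that of other genes at this level. With all tested genes held to a mean of at least 50 it was 89 of 356 members (25%), against 27.9% of all genes tested. Their median log2 fold change was 0.02, that of all tested mouse genes was -0.02, and 309 members lay within 0.5 of 0. Without scaling beyond library totals the same comparison gave 1 member higher and 345 lower, since the members' median moved to -1.05 and that of all tested mouse genes to -0.96. The count was 11 without the second OSCA-32 library, 16 without the first, and 17 to 26 without each of the other 6 libraries. It was 5 with only the tumour groups in the fit (Vps33a, Foxp2, Gipc2, Fuom and Herc3) and 1, Vps33a, without the variance trend.

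The largest difference was that of Vps33a, a subunit of the HOPS and CORVET tethering complexes of endosomes and lysosomes. It stood at 190 and 119 in OSCA-40, 62 and 79 in OSCA-32, 127 and 94 in PBS and 106 and 108 at week 0. Both its OSCA-40 libraries exceeded both OSCA-32 libraries as deposited, and its log2 fold change was 2.16 ± 0.23 (SE, limma adjusted p = 0.0051). Its OSCA-40 libraries differed more from each other than those of the other groups. Phkg1, the catalytic subunit of muscle phosphorylase kinase, stood at 189 and 138 in OSCA-40, 141 and 150 in OSCA-32, 132 and 160 in PBS and 149 and 158 at week 0. Its deposited OSCA-40 and OSCA-32 values overlapped, and its scaled values did not, with a log2 fold change of 1.22 ± 0.14 (SE, limma adjusted p = 0.0077). Without either OSCA-32 library Phkg1 missed the threshold, with limma adjusted p = 0.0595 and 0.0604, whereas Vps33a passed without each of the 8 libraries.

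Foxp2 was higher in OSCA-40 than in OSCA-32 after scaling, at 2117 and 2128 scaled units in OSCA-40 and 1291 and 1359 in OSCA-32, and lower by library totals alone. The scaled log2 fold change was 0.68 ± 0.05 (SE, limma adjusted p = 0.0014), the smallest adjusted p of any member that was higher. Gstt3, a glutathione S-transferase, stood at 101 and 104 in OSCA-40, 122 and 106 in OSCA-32, 104 and 102 in PBS and 123 and 130 at week 0, so that its deposited values were nearly level over the 4 groups. Its log2 fold change was 0.91 ± 0.10 (SE, limma adjusted p = 0.0060), and it too was lower by library totals alone. Bud23 stood at 1223 and 1239 in OSCA-40, 1614 and 1276 in OSCA-32, 1417 and 1472 in PBS and 1668 and 1834 at week 0, with a scaled log2 fold change of 0.85 ± 0.12 (SE, limma adjusted p = 0.0153). The other named members with higher scaled values were Atp2b4 (0.90), Gipc2, a PDZ-domain protein (0.82), Ttyh3, of a family of chloride channels (0.75), Smarca5, the ATPase of ISWI chromatin remodellers (0.70), and Stk16, a serine and threonine kinase (0.69), all as log2 fold changes. Tlr1, the highest member, was also higher after scaling, at 16278 and 15924 in OSCA-40 and 12929 and 11595 in OSCA-32, with a log2 fold change of 0.39 ± 0.07 (SE, limma adjusted p = 0.0352). Tlr1 missed the threshold without any 1 of 7 libraries other than the first OSCA-32 library, with a pseudocount of 0.25 and with the replicate number as a block. Each of these, and Bud23, was lower in OSCA-40 by library totals alone. Bud23 missed the threshold without the second OSCA-40 library, Stk16 without either OSCA-32 library, and Gipc2 also without the first OSCA-40 library. Atp2b4 missed it without any 1 of the OSCA-32, PBS and week 0 libraries, Smarca5 without any 1 of 7 libraries other than the first OSCA-32 library, and Ttyh3 without any 1 of the 8.

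Among the members lower in OSCA-40, Myo7a had the highest level. Its log2 fold change was -0.93 ± 0.08 (SE, limma adjusted p = 0.0030), and its deposited values, given above, did not overlap between the lines. Herc3, a ubiquitin ligase, stood at 111 and 111 in OSCA-40, 408 and 461 in OSCA-32, 915 and 909 in PBS and 717 and 632 at week 0. Its scaled log2 fold change was -0.90 ± 0.09 (SE, limma adjusted p = 0.0038). Fuom, a fucose mutarotase, stood at 39 and 43 in OSCA-40, 184 and 178 in OSCA-32, 424 and 379 in PBS and 397 and 364 at week 0, with the OSCA-40 libraries the lowest and close together. Its scaled log2 fold change was -1.07 ± 0.11 (SE, limma adjusted p = 0.0040). Sirt2, an NAD-dependent deacetylase, stood at 78 and 81 in OSCA-40, 272 and 279 in OSCA-32, 399 and 419 in PBS and 394 and 375 at week 0. Its scaled values in OSCA-32 lay close to those without tumour, and its log2 fold change between the lines was -0.72 ± 0.07 (SE, limma adjusted p = 0.0041).

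H2-Q4, a class I gene of the major histocompatibility complex, stood at 50 and 44 in OSCA-40, 169 and 184 in OSCA-32, 322 and 301 in PBS and 258 and 267 at week 0, with a log2 fold change of -0.84 ± 0.08 (SE, limma adjusted p = 0.0038). It belongs to a family of near-identical neighbours, so its reads may be split among them and its value is uncertain. The other named members that were lower were the zinc finger gene Zfp280d (-1.16), Smc4 of the condensin complex (-1.10), the sestrin Sesn3 (-0.87), Mum1 (-0.86) and Extl1, a glycosyltransferase of heparan sulphate synthesis (-0.77), as log2 fold changes. By library totals alone each of these lower members, and those with values above, was lower by a larger amount. Sesn3 and Extl1 missed the threshold without either OSCA-32 library, and Zfp280d also without the first OSCA-40 library or either week 0 library. Mum1 missed it without any 1 of the tumour and week 0 libraries, and Smc4 without any 1 of 7 libraries other than the second OSCA-40 library. By shared word on either strand, 22.5% of the 80 members with word 1 passed, 19.1% of the 47 with word 2, 9.3% of the 43 with word 3, and 6.67% of the 45 with word 4. It was 16.7% of the 30 with word 5, 11.8% of the 34 with word 6, 3.12% of the 32 with word 7 and 16% of the 25 with word 8, set beside 11.5% of all members and 2.54% of all genes tested. Of the 54 members with no widely shared word 2 passed (3.7%). These differences between words were not tested.

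**Figure D4:**
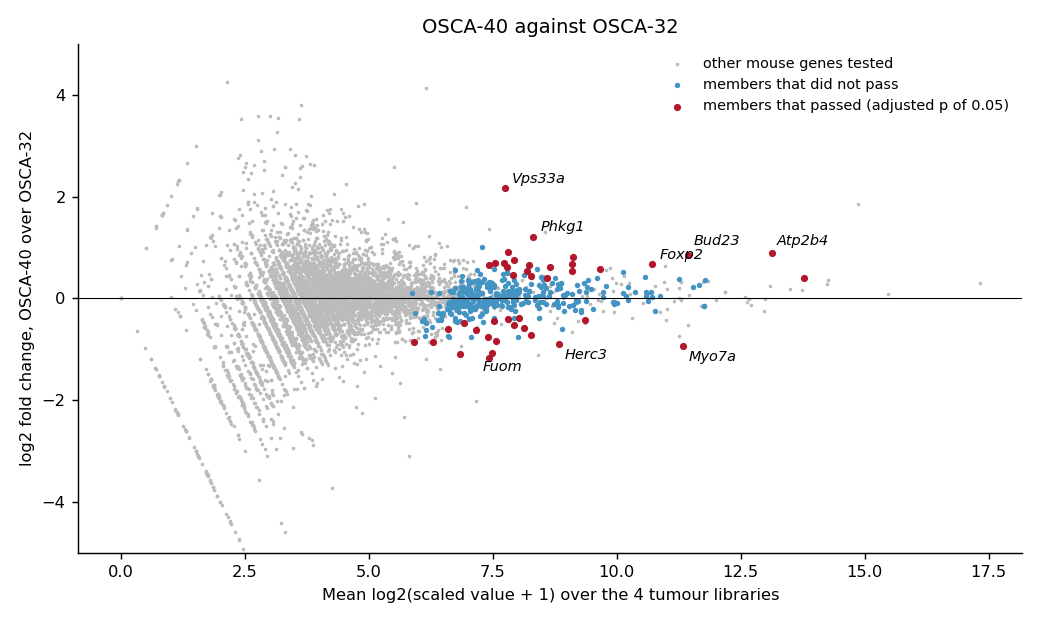
Scaled log2 fold change of OSCA-40 over OSCA-32 (vertical) against mean log2(scaled value + 1) over the 4 tumour libraries (horizontal) for the mouse genes tested, with members in blue or, where they passed, in red, and 4 other mouse genes beyond the range plotted. The members lie at the high end of the levels and spread evenly about 0, with 22 higher and 19 lower; by library totals alone it was 1 higher and 345 lower, and Foxp2, Bud23 and Atp2b4 were then lower.

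The comparisons with PBS involve libraries that chose the members, so they are descriptions and nothing is read from their counts. In OSCA-40 against PBS, 72 members stood higher and 38 lower at the same threshold (30.9% of the members, against 6.83% of all genes tested, 4.45% higher and 2.39% lower, and 40.4% of the other mouse genes at 100 or more without tumour). In OSCA-32 against PBS it was 12 higher and 0 lower (3.37%, against 1.08% of all genes tested, 0.889% higher and 0.191% lower, and 8.61% of the other high mouse genes). In PBS against week 0 only Foxp2 passed, and it was lower in PBS (0.281%, against 0.191% of all genes tested, 0.114% lower). It missed the threshold without any 1 of the OSCA-32, PBS and week 0 libraries. The median log2 fold change of the members was 0.07 in OSCA-40 against PBS, 0.06 in OSCA-32 against PBS and -0.01 in PBS against week 0. OSCA-40 and OSCA-32 share the PBS libraries in these comparisons, so their values are given side by side without a measure of likeness.

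Foxp2 had a scaled log2 fold change of 1.53 in OSCA-40 against PBS, 0.85 in OSCA-32 against PBS and -0.53 in PBS against week 0; by library totals alone the first of these was -0.14. Its scaled values were 2117 and 2128 in OSCA-40, 1291 and 1359 in OSCA-32, 745 and 728 in PBS and 1069 and 1063 at week 0, so that no group overlapped another. The 5 members with the highest scaled tumour mean relative to the scaled mean without tumour were Phkg1, Vps33a, Gstt3, Foxp2 and Ttyh3. The 5 lowest were Kcnmb4, an accessory subunit of calcium-activated potassium channels, Fuom, Zfp280d, Slc39a14, a zinc and iron transporter, and Ythdc2, an RNA helicase of meiosis. These rankings pool the tumour groups, and for Vps33a and Zfp280d they rested mainly on OSCA-40. In OSCA-32 against PBS, the log2 fold changes of Vps33a and Zfp280d were -0.06 and -0.19. Those of the other highest members were 0.58 to 0.85 and those of the other lowest -0.95 to -0.40. Kcnmb4 stood at 15 and 22 in OSCA-40, 50 and 43 in OSCA-32, 146 and 125 in PBS and 144 and 132 at week 0, so both tumour groups lay below both groups without tumour. Slc39a14 stood at 22 and 18 in OSCA-40, 32 and 47 in OSCA-32, 90 and 121 in PBS and 107 and 109 at week 0, again with no overlap.

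**Figure D5:**
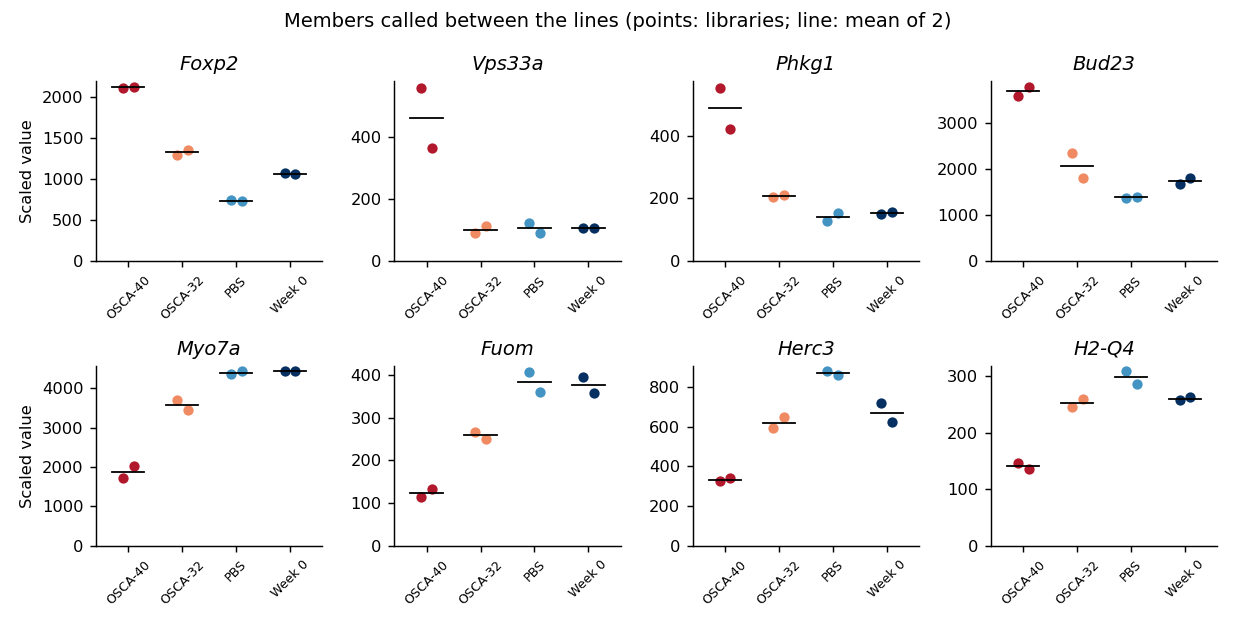
Scaled values (vertical, from 0) of 8 members that passed between OSCA-40 and OSCA-32, with 1 point per library and a line at the mean of the 2 libraries of each group. Foxp2, Vps33a, Phkg1 and Bud23 stand higher in OSCA-40 (by library totals alone Foxp2 and Bud23 stand lower). Myo7a, Fuom, Herc3 and H2-Q4 stand lower. As a ratio of the 2 libraries, the OSCA-40 points of Vps33a, 558 and 364, are the farthest apart.

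The members at the extremes of transcript length complete the description. Adgrv1, an adhesion receptor whose longest transcript has 19338 bases, stood at 26 and 26 in OSCA-40, 80 and 86 in OSCA-32, 114 and 112 in PBS and 106 and 106 at week 0, and passed between the lines with a log2 fold change of -0.60 ± 0.09 (SE, limma adjusted p = 0.0179). Adgrv1 missed the threshold without the first OSCA-40 library or any 1 of the OSCA-32 and week 0 libraries. Mycbp2, a large ubiquitin ligase with a longest transcript of 15233 bases, stood at 34 and 29 in OSCA-40, 67 and 72 in OSCA-32, 101 and 104 in PBS and 97 and 108 at week 0 and did not pass. Pnpla8, a phospholipase with 13507 bases, stood at 144 and 142 in OSCA-40, 307 and 348 in OSCA-32, 561 and 572 in PBS and 410 and 432 at week 0. At the short end, Zfp972 (561 bases), Rpa3 of replication protein A (682 bases) and Sfta2 (694 bases) had means without tumour of 140, 127.75 and 236.5 and did not pass between the lines.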

How the data were processed

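Total RNA of serum exosomes was extracted with a SeraMir kit after ExoQuick enrichment and sequenced from stranded SMARTer pico libraries, per the labels. Trimmomatic 0.33.0, FastQC 0.11.5 and kallisto 0.43.0, and the builds CanFam3.1 and GRCm38.p5, are listed without roles by the submitters' processing notes; the index and annotation are not stated. The deposited values, called counts by the table, are treated as a score: whole numbers whose library totals are nearly equal and that behave as TPM over mouse and dog together. A 0 is reported only as listed at 0.

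Scaling factors were trimmed means of log ratios (30% of ratios and 5% of levels at each end). Genes at 10 or more in at least 2 libraries (7655 mouse, 217 canine) entered 1 limma fit (3.58.1, R 4.3.3) on log2(scaled value + 1) over 8 libraries, with a variance trend, 4 residual degrees of freedom and Benjamini-Hochberg adjustment per comparison. Word sharing used 111362 transcripts. The members, lists and tests were chosen with earlier results of these data known. Named genes are Foxp2, the 15 highest, and up to 10 called between the lines per direction by size. Also named are the 5 highest and lowest with tumour, those at the threshold, and the 3 longest and 3 shortest. Ankef1, Itga2b, Cd3e, Snap25, Syt1 and the left-out genes were named after their values were seen.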

Additional observations from a re-analysis of the deposited data

Results flagged for a closer look

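The 22 named members that passed between OSCA-40 and OSCA-32 differ between 2 tumour groups under the same design, by the limma test of the difference itself, on scaled values. The log2 fold changes of those higher in OSCA-40 were 2.16 for Vps33a, 1.22 for Phkg1, 0.91 for Gstt3, 0.90 for Atp2b4, 0.85 for Bud23, 0.82 for Gipc2, 0.75 for Ttyh3, 0.70 for Smarca5, 0.69 for Stk16, 0.68 for Foxp2 and 0.39 for Tlr1. Those of the members lower in OSCA-40 were -1.16 for Zfp280d, -1.10 for Smc4, -1.07 for Fuom, -0.93 for Myo7a, -0.90 for Herc3, -0.87 for Sesn3, -0.86 for Mum1, -0.84 for H2-Q4, -0.77 for Extl1, -0.72 for Sirt2 and -0.60 for Adgrv1. The canine share of the libraries differed between these groups too, at 68.4% and 70.7% in OSCA-40 and 44.7% and 43.3% in OSCA-32, and its part in these differences was not tested.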

How the results depend on the processing

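The threshold set the number of members: 743 genes qualified at a mean of 50 or more and 164 at 200 or more, against 356 at 100. With 2 libraries a group and unknown depth, the counts of calls moved with most settings. Called between OSCA-40 and OSCA-32, OSCA-40 and PBS, OSCA-32 and PBS, and PBS and week 0, in that order, were 41, 110, 12 and 1 members; by library totals alone 346, 350, 242 and 0; with a mean of at least 50, 89, 172, 52 and 8; with only the groups compared, 5, 61, 1 and 0; and without the variance trend 1, 27, 0 and 0. Without the filter, OSCA-32 against PBS had 2 and PBS against week 0 had 0. Leaving out 1 library at a time gave 11 to 26, 55 to 107, 1 to 12 and 0 to 1 members, and 349 to 357 members chosen. Of the 22 named members called between the lines, 8 (Foxp2, Fuom, Gstt3, H2-Q4, Herc3, Myo7a, Sirt2 and Vps33a) were called without each of the 8 libraries, and the other named ones were lost without at least 1. Median-of-ratios scaling and pseudocounts of 0.25 and 4 gave 41, 39 and 42 between the lines.

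The replicate number as a block gave 27, 95, 4 and 0 called members; the numbers do not pair the libraries, whose deviations correlated at -0.06 to 0.01 between groups. By library totals alone, log2 fold changes of OSCA-40 against OSCA-32 turned to -0.40 for Foxp2, -0.16 for Gstt3, -0.18 for Atp2b4, -0.23 for Bud23, -0.25 for Gipc2, -0.32 for Ttyh3, -0.37 for Smarca5, -0.38 for Stk16 and -0.68 for Tlr1, and Foxp2 in OSCA-40 against PBS turned to -0.14. Totals leave the canine share of a library in every mouse value, and this scaling moved the median of all tested mouse genes to -0.96.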
